A study of Mus musculus with 18 samples.

Results

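The genes described here are 10 readouts and regulators of bone morphogenetic protein (BMP) signalling among the 55401 genes measured in mice that were given RECTAS or its vehicle, in 3 tissues: colon, lung and liver. They are the ID protein genes Id1, Id2, Id3 and Id4, the SMAD genes Smad6, Smad7 and Smad9, the hepcidin gene Hamp, the transcription factor gene Atoh8 and the ligand gene Bmp6. They were chosen by name because Id3 was at about 0.494 of its vehicle level in liver under RECTAS, so the liver comparison of RECTAS with vehicle chose them and is described below without a test. RECTAS (rectifier of aberrant splicing) is a small molecule that acts on pre-mRNA splicing. C57BL/6N mice aged 7 weeks took 100 mg/kg RECTAS in 0.5% carboxymethyl cellulose by mouth, or the carboxymethyl cellulose alone as vehicle, as 2 doses 4 h apart, and each tissue was collected 8 h after the first dose. Each of the 6 groups (colon, lung or liver, vehicle or RECTAS) held 3 libraries, 18 in all, of polyadenylated RNA. The labels used here do not give the sex of the mice, and they do not say whether the 3 libraries of a group were separate animals or whether 1 animal gave all 3 tissues, and p-values therefore describe only how far these samples spread, which may be technical.

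BMP ligands bind pairs of receptor kinases at the cell surface, which phosphorylate SMAD1, SMAD5 and SMAD9, and these enter the nucleus with SMAD4 to switch on target genes. The Id genes are among the most direct targets: they encode helix-loop-helix proteins without a DNA-binding region, which hold back basic helix-loop-helix factors by pairing with them. Smad6 and Smad7 encode inhibitory SMADs that feed back on the pathway. In liver, BMP6 from sinusoidal endothelial cells drives hepcidin in hepatocytes, and hepcidin lowers iron export into the blood by acting on ferroportin. Id1, Smad7 and Atoh8 are known to follow hepatic iron together with hepcidin in mice.

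Expression was given as TPM, in which each gene's share of the transcripts in a library is corrected for gene length. This unit does not hold the number of reads, and the depth is unknown. Between 19836 and 25227 genes lay above 0 in a library. Alb, Sftpc and Slc26a3, the marker genes of hepatocytes, alveolar type 2 cells and colonocytes, were each high in the libraries labelled with their tissue. Means are given ± SD with n = 3 libraries. Log2 differences were taken on log2(TPM + 1), RECTAS minus vehicle, and are too small for genes of low level. Tests are limma moderated tests with Benjamini-Hochberg adjustment over all genes tested in a comparison. In whole tissue, fewer cells of a type and less RNA per cell cannot be told apart.

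The DNA around the gene starts is shown for the genes on which the liver results turn, so that the BMP element of the hepcidin promoter can be read beside its near copy and beside the other members. RefSeq (GRCm38.p6) gave the 250 bases before the start of 8 of the 10 members, all but Id1 and Smad7. For Id3, Bmp6 and Id2 the whole window lies inside the gene as GENCODE annotates it: 250 of the 250 bases of Id3 and of Bmp6, and 161 of the 250 bases of Id2, are in annotated exons, so these windows are transcribed sequence and not DNA upstream of the annotated gene start. The Hamp2 window also lies wholly inside its annotated gene (chr7:30922372-30924681), with 0 bases in exons, so it is not upstream DNA either. In Hamp, 3 bases of the window are in annotated exons. In the 3 windows printed whole, capitals mark a GC-rich box bound by SMAD1 and SMAD5 (GGCGCC, or the bases aligned to it in Hamp2) and, in Hamp and Hamp2, a STAT box (TTCNNNGAA), and the last base is the one before the RefSeq start. Hamp is on the minus strand at chr7:30944030-30944279, Hamp2 on the minus strand at chr7:30924182-30924431 and Smad9 on the plus strand at chr3:54755332-54755581.
Hamp: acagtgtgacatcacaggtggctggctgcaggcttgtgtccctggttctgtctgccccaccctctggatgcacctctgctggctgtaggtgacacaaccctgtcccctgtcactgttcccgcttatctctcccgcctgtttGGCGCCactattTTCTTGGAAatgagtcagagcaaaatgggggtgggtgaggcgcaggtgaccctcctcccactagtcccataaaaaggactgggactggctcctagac
Hamp2: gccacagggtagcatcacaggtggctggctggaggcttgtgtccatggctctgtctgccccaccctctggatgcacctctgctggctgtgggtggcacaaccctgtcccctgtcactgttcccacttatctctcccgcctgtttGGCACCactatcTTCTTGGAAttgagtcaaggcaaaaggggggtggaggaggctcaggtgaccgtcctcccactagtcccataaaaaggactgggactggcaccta
Smad9: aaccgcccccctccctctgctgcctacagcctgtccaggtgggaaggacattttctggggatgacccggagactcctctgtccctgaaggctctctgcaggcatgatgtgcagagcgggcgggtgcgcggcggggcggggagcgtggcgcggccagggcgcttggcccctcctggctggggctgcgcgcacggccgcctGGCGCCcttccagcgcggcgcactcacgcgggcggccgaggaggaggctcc

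In Hamp the GC-rich box lay at bases -109 to -104 and the STAT box at -97 to -89, counted back from the gene start. Hamp2 differed from that GC-rich box by 1 substitution, G4A, with positions counted from 1 at the 5′ end of the box in Hamp, and its own hexamer began at -106. The Hamp2 STAT box lay at -94 to -86. In Smad9 the GC-rich box lay at -51 to -46. Both strands were searched, also for the SMAD4 box (GTCTG), and the boxes named here do not overlap each other. Of 32851 RefSeq windows of this length, 9.59% held the GC-rich box, 7.02% held the STAT box and 42.2% held the SMAD4 box. The GC-rich box was found in Hamp, Smad9, Id2 and Id4, which is 4 of the 8 members matched, and in Id2 it lies inside the annotated gene. The Id3 window, wholly in exons, held 2 SMAD4 boxes and no GC-rich box, and the DNA before the annotated Id3 start was not searched. SMAD4 boxes also lay in Hamp (-201 to -197), Bmp6 (-119 to -115) and Hamp2 (-198 to -194), and they are not in capitals above.

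The motifs of Id2 and Id3, the Id genes with the largest log2 differences in liver, are shown as windows of 30 bases with the motif in capitals. The Id2 window is on the minus strand at chr12:25096306-25096335, and the Id3 windows are on the plus strand at chr4:136143643-136143672 and chr4:136143742-136143771.
Id2 (GGCGCC at -231): tcaggccccctgGGCGCCcagcgcacactg
Id3 (CAGAC at -167): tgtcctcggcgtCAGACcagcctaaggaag
Id3 (GTCTG at -68): ggacccttggcgGTCTGttttgaataaggg
These matches describe the sequence, and no binding was measured.

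Among the ID genes, Id2 and Id3 were lower in all 3 RECTAS livers than in all 3 vehicle livers. Id3 (chromosome 4, GRCm38) read 40.5, 32.3 and 39.1 TPM in the vehicle livers and 17.98, 18.8 and 18.5 TPM in the RECTAS livers. The RECTAS values lay within 1 TPM of each other and below every vehicle value. The means were 37.3 ± 4.40 and 18.4 ± 0.41 TPM, a log2 difference of -0.97 (SE 0.10). Id2, whose protein restrains E proteins in many cell types, read 133, 75.1 and 153 TPM under vehicle and 67.0, 52.6 and 52.4 TPM under RECTAS. Vehicle library 2 was the lowest of the vehicle livers and stood closest to the RECTAS range, which it did not enter. The Id2 means were 120 ± 40.6 and 57.3 ± 8.37 TPM (log2 difference -1.01, SE 0.26).

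Id1 and Id4 were low in liver, and their groups overlapped. Id1 read 9.39, 4.06 and 7.03 TPM in vehicle livers and 4.82, 3.51 and 6.08 TPM in RECTAS livers (log2 difference -0.39, SE 0.28). Id4 stood at 0.503 ± 0.110 and 0.407 ± 0.155 TPM, below the filter of 1 TPM in 3 libraries. The ID genes thus differed in level in liver by far more than RECTAS and vehicle did: Id2 was the highest, Id3 was next, and Id1 was under 10 TPM in each of the 6 libraries.

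Among the SMAD genes in liver, Smad9 had groups that lay apart. Smad9, which encodes a BMP-responsive receptor SMAD, read 3.60, 3.29 and 4.04 TPM under vehicle and 2.87, 2.34 and 1.16 TPM under RECTAS (log2 difference -0.61, SE 0.22). The closest libraries of the groups were 2.87 and 3.29 TPM, and RECTAS library 3 was the lowest. Smad7 read 3.81, 3.66 and 10.6 TPM under vehicle and 3.01, 4.92 and 4.25 TPM under RECTAS. Vehicle library 3 stood far above the other 5 livers, and without it the log2 difference went from -0.35 to 0.08. Smad6 was at 2.70 ± 0.311 and 2.38 ± 0.520 TPM (log2 difference -0.14, SE 0.15), with overlapping groups.

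The liver readouts of BMP signalling were less separated than Id2 and Id3. Hamp, the main regulator of systemic iron, read 5786, 3223 and 4199 TPM under vehicle and 2928, 3611 and 2791 TPM under RECTAS. RECTAS library 2 lay above vehicle library 2, and the other 2 RECTAS livers lay below every vehicle liver. The means were 4403 ± 1294 and 3110 ± 439 TPM (log2 difference -0.47, SE 0.21). Hamp2, a near copy whose transcript shares 388 of 410 aligned bases with Hamp (94.6%), read 2412, 1221 and 1061 TPM under vehicle and 1294, 947 and 1614 TPM under RECTAS. The Hamp2 groups overlapped, and reads common to Hamp and Hamp2 may have been divided between them in a way that the files do not show. Atoh8, which encodes a basic helix-loop-helix factor known to promote hepcidin expression, read 17.4, 6.52 and 8.95 TPM under vehicle and 10.98, 8.99 and 9.98 TPM under RECTAS, with a log2 difference of -0.02 (SE 0.30). Without vehicle library 1 the Atoh8 difference was 0.34, and without vehicle library 2 it was -0.31. Bmp6, the ligand gene, was at 1.44 ± 0.668 and 1.02 ± 0.143 TPM.

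Of the 10 members, 9 passed the filter on low values in liver, and each of these had a lower mean log2 level under RECTAS. Over the 11944 genes tested in liver, 60.0% were lower and the median was -0.04, while the members that passed had a median of -0.39. In 3 of the 10 members (Id2, Id3 and Smad9) the RECTAS values lay below all vehicle values, against 13% of all genes tested in that direction, and in 0 they lay above, against 5.75%. With median ratio scaling or quantile normalisation 8 of the 9 were lower. As the liver values chose the members, nothing is read from these counts.

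**Figure D1:**
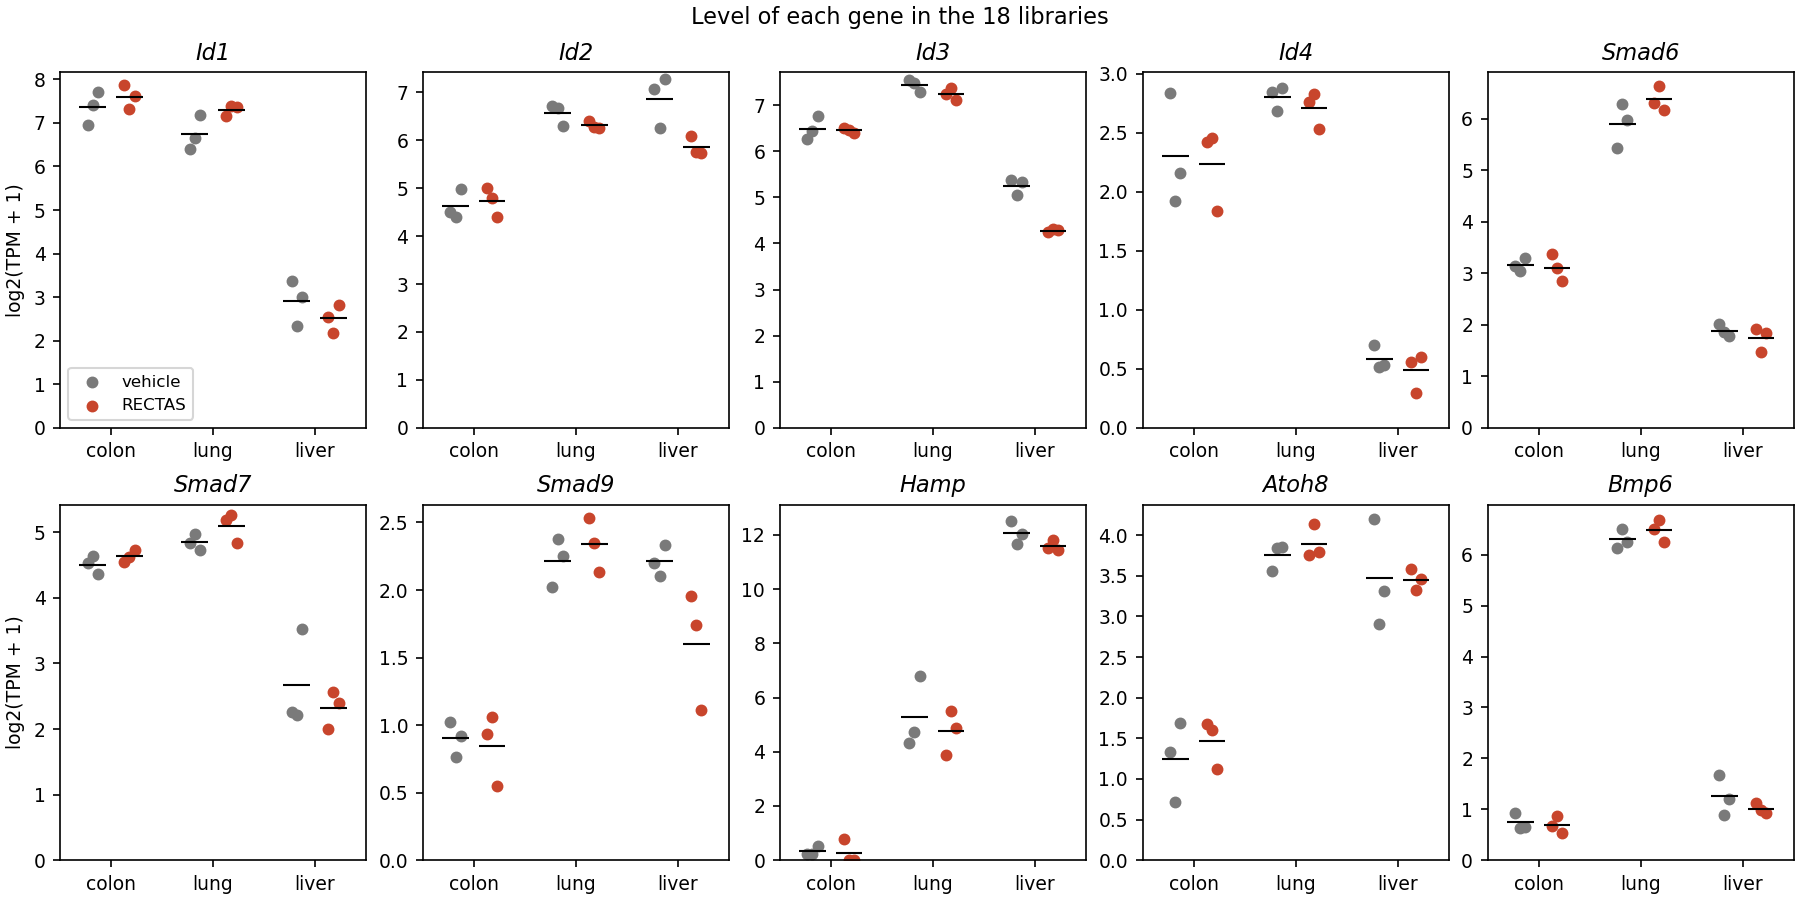
Level of each of the 10 genes as log2(TPM + 1) on the y axis, by tissue, with vehicle in grey and RECTAS in red; each point is 1 library and the bar is the mean of the 3. Id3 in RECTAS liver sits at 17.98 to 18.8 TPM before the log, below the vehicle livers at 32.3 to 40.5 TPM.

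The liver cell types known to carry BMP signals were checked by marker lists. Sinusoidal endothelial markers were lower in 12 of 14 under RECTAS (median log2 difference -0.23), with sums of 193 to 247 TPM in vehicle livers and 170 to 214 TPM in RECTAS livers, and 0 of the 14 markers were at 0 in each liver library. Pan-endothelial markers were lower in 13 of 15 (median -0.18), with sums of 78.8 to 100.2 and 69.6 to 91.0 TPM. Both ranges overlapped. Hepatocyte markers had a median of -0.03, with 9 of 14 lower. For stellate cells and fibroblasts the median was -0.04, with 8 of 12 lower. For Kupffer cells and macrophages it was -0.03, with 7 of 12 lower. Of all genes tested in liver, 60.0% were lower. Limma called 0 genes of these lists, and the part of these cell types in the lower Id and Smad9 values was not tested.

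In lung, 0 of 10 members passed the adjusted threshold of limma, where 0.00637% of genes were called higher and 0% lower. At an unadjusted p under 0.05, 1977 of 15699 genes differed, 1682 of them higher, against 830 higher of 1474 after median ratio scaling. All 10 members passed the filter, 6 with a higher and 4 with a lower mean log2 level, and their median was 0.13 beside 0.06 over all genes tested. In 0 members did the groups lie apart, against 16.1% of genes with RECTAS above and 3.18% with RECTAS below. The Id genes lay on both sides of 0.

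Id1 read 83.2, 99.5 and 143 TPM in the vehicle lungs and 141, 165 and 164 TPM in the RECTAS lungs. The highest vehicle lung lay just above the lowest RECTAS lung, and the others were apart. The means were 109 ± 31.2 and 157 ± 13.3 TPM, and the log2 difference was 0.56 (SE 0.19, 95% interval 0.11 to 1.01), with an adjusted p of 0.336 by limma. Smad6, an inhibitory SMAD gene that endothelium expresses strongly, read 41.8, 77.2 and 61.9 TPM under vehicle and 78.2, 98.7 and 70.8 TPM under RECTAS. RECTAS library 3 lay below vehicle library 2, so the groups overlapped. Its log2 difference was 0.48 (SE 0.23, adjusted p = 0.436 by limma). Smad7 averaged 28.0 ± 2.49 and 33.4 ± 5.20 TPM (0.24, SE 0.13), and Bmp6 78.3 ± 10.5 and 88.9 ± 13.4 TPM (0.18, SE 0.14).

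Id3, the gene lower in RECTAS liver, read 186, 178 and 155 TPM in the vehicle lungs and 150, 164 and 138 TPM in the RECTAS lungs. RECTAS library 2 lay above vehicle library 3, so the groups overlapped. Its log2 difference was -0.20 (SE 0.09), with a 95% interval of -0.42 to 0.03 and an adjusted p of 0.438 by limma. The difference between lung and liver was not tested, as the liver values chose the gene. Id2 read 104, 101 and 77.5 TPM against 83.2, 76.3 and 75.4 TPM (log2 difference -0.25, SE 0.12, adjusted p = 0.428), again with overlap. Id4, Smad9 and Atoh8 were below 17 TPM in each lung library, with log2 differences of -0.10, 0.12 and 0.14.

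Hamp in lung had overlapping groups. It read 18.8, 25.7 and 110 TPM in vehicle lungs and 13.8, 44.8 and 28.4 TPM in RECTAS lungs, a log2 difference of -0.52 (SE 0.69, adjusted p = 0.774). Vehicle library 3 stood far above the rest, and without it the difference was 0.24. The hepatocyte markers were lower in 14 of 14 under RECTAS (median -1.30), with sums of 495 to 2766 TPM in vehicle and 492 to 1413 TPM in RECTAS lungs. Albumin read 9.07, 292 and 782 TPM in the vehicle lungs and 0.81, 28.5 and 334 TPM in the RECTAS lungs. Per 1000 TPM of Alb, Hamp was 39.4 to 93.2 TPM in the livers, and 88.0, 141 and 2077 TPM in the vehicle lungs and 85.2, 1572 and 17049 TPM in the RECTAS lungs. Of the 3 lungs with the most Alb, 2 had ratios inside the liver range and vehicle library 3 had 141, and the other 3 lungs had ratios far above it. The part of liver RNA in the lung Hamp values was not tested.

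**Figure D2:**
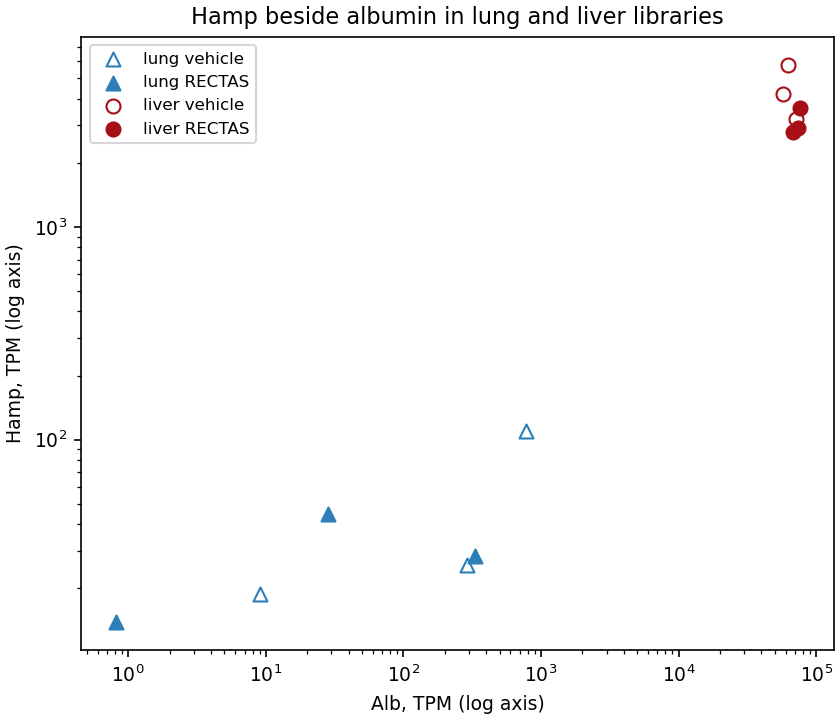
Hamp against Alb in TPM, both on log axes, for lung and liver libraries under vehicle (open) and RECTAS (filled). Each point is 1 library; the lungs with Alb of 292 to 782 TPM have Hamp of 25.7 to 110 TPM, and RECTAS lung 1 has Hamp at 13.8 TPM with Alb at 0.81 TPM.

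In colon, 0 members were called, 0 of 14282 genes were called by limma in either direction, and 231 had an unadjusted p under 0.05. Of the 10 members 7 passed the filter, all but Smad9, Hamp and Bmp6, with 4 higher, 3 lower and a median of 0.11 beside 0.02 over all genes. In 0 members did the groups lie apart, against 3.43% of genes with RECTAS above and 2.01% below. Id3 read 75.4, 85.1 and 108 TPM under vehicle and 89.8, 86.4 and 83.6 TPM under RECTAS. The RECTAS values fell inside the vehicle range, and the log2 difference was -0.03 (SE 0.13, 95% interval -0.34 to 0.28, adjusted p = 0.9999 by limma). Id1, the highest member in colon, read 123, 169 and 207 TPM and 234, 159 and 195 TPM, with a log2 difference of 0.25 (SE 0.21). Id2 was at 24.1 ± 5.73 and 25.9 ± 5.43 TPM and Smad7 at 21.9 ± 2.15 and 23.9 ± 1.53 TPM, with groups that overlapped. Colonocyte marker sums ranged from 14761 to 33145 TPM under vehicle and 17989 to 34355 TPM under RECTAS, and smooth muscle marker sums from 2190 to 5884 and 1947 to 3629 TPM, so both sums varied within each group, and their part in the colon values was not tested. Hamp in colon read 0.17, 0.18 and 0.45 TPM under vehicle, and 0.71 TPM in RECTAS library 1 while RECTAS libraries 2 and 3 were listed at 0.

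Colon and lung, whose comparisons did not choose the members, were also fitted together. Averaged over both, Id1 was 0.40 higher on the log2 scale (SE 0.16, 95% interval 0.06 to 0.75), with an adjusted p of 0.594 by limma. Smad7 was 0.18 higher (SE 0.08, adjusted p = 0.640), Smad6 0.21 higher (SE 0.15, adjusted p = 0.801) and Id3 0.11 lower (log2 difference -0.11, SE 0.09, adjusted p = 0.821). Limma called 0 of 17037 genes in either direction, so 0% was the background, and 1331 genes had an unadjusted p under 0.05. The lung effect minus the colon effect passed in 0 members and 0 genes (469 at an unadjusted p under 0.05). Smad6 had the largest such difference among the members, at 0.53 (SE 0.30, 95% interval -0.13 to 1.18, adjusted p = 0.9998).

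**Figure D3:**
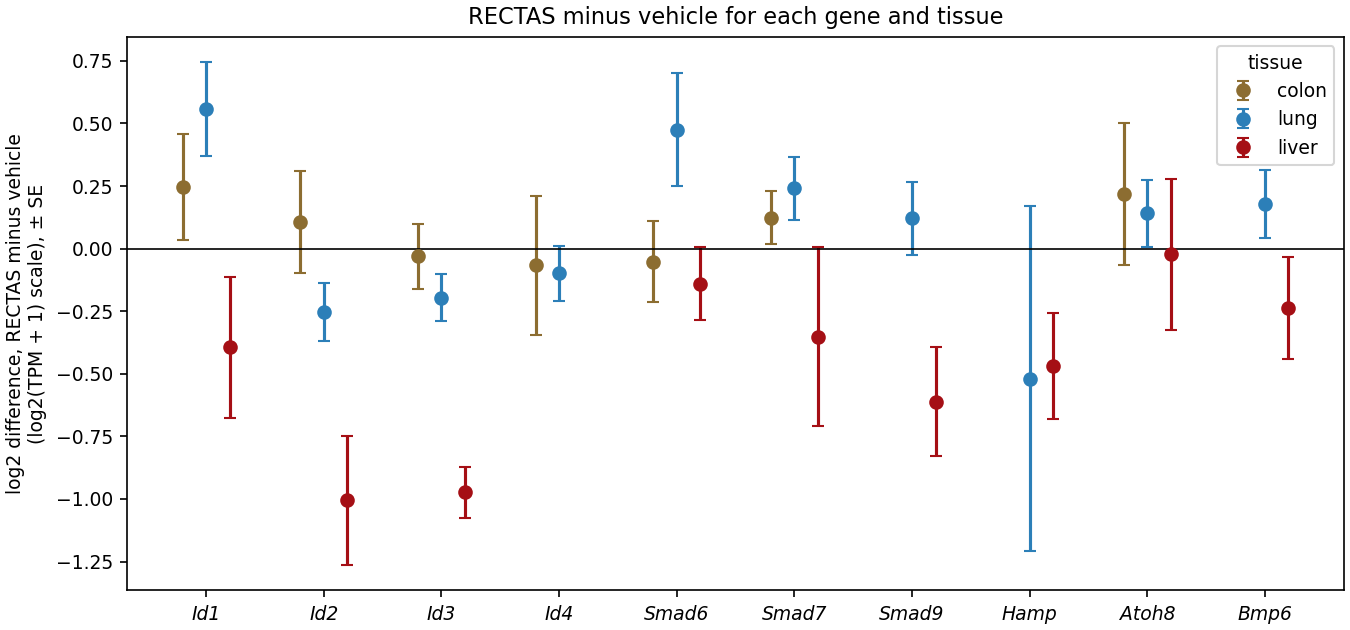
Difference in mean log2(TPM + 1) between RECTAS and vehicle, ± SE, for each gene and tissue, where the gene passed the filter. Each point is a difference of 3 and 3 libraries; Id2 and Id3 lie near -1 in liver, and their colon and lung values lie between -0.25 and 0.11.

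The levels of the members in the vehicle libraries differed strongly between tissues. These tests used libraries that took part in the choice for liver, as the vehicle livers did. A call needed an adjusted p under 0.05 by limma and a log2 difference of at least 1. The median of all genes was -0.68 for liver minus colon, 0.35 for lung minus colon and -1.10 for liver minus lung, and near 0 after median ratio scaling, so calls are given with the settings that changed them. A gene needed 1 TPM in at least 3 of the 9 vehicle libraries. Bmp6 reached it in 3 lung, 2 liver and 0 colon libraries, and Hamp in 0 colon libraries. Id4 read 0.43 to 0.63 TPM in the vehicle livers, all below 1 TPM. In the vehicle colons Smad9 read 0.7 to 1.03 TPM, and Atoh8 read 1.52, 0.64 and 2.22 TPM. Bmp6, Hamp and Id4 thus passed the filter only through tissues where they are high. Smad9 nearly did so, and Atoh8 also needed libraries of such tissues to pass. Bmp6, Hamp and Id4 had to differ from the tissues where they are low, and Smad9 and Atoh8 were favoured to. Those differences are given as levels only and are left out of the calls below.

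Against colon, Id2 was called higher in liver (9.95% of genes were called higher). Id1, Smad7, Smad6 and Id3 were called lower (37.5% called lower). Hamp, Smad9, Atoh8 and Id4 are given as levels. Hamp was 11.73 higher in liver on the log2 scale, Id2 2.24, Atoh8 2.23 and Smad9 1.31 higher. Id1 was 4.45 lower (log2 difference -4.45, adjusted p = 7.61e-07), at 6.83 ± 2.67 TPM in liver and 167 ± 42.0 TPM in colon. Id4 (-1.72), Smad7 (-1.84), Smad6 (-1.28) and Id3 (-1.23) were also lower. After median ratio scaling the calls for Id3 (-0.29), Smad6 (-0.51) and Smad7 (-0.99) were lost, and Bmp6, at 0.51 before, stood at 1.08. Id4 stood at -0.71 with a pseudocount of 5 TPM and at -0.91 with quantile normalisation. That pseudocount ended the call for Smad6 (-0.75) and put Smad9 at 0.56. Quantile normalisation ended the calls for Id3 (-0.65), Smad6 (-0.38) and Smad7 (-0.95), and Bmp6 stood at 1.28.

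Against colon, Smad6 and Id2 were called higher in lung (27.8% called higher), and 0 members were called lower (13.6% called lower). Bmp6, Hamp, Atoh8 and Smad9 are given as levels. Bmp6 was 5.56 higher in lung, at 78.3 ± 10.5 against 0.683 ± 0.197 TPM, Hamp 4.95, Smad6 2.73, Atoh8 2.51, Id2 1.94 and Smad9 1.32 higher. Id3 was 0.96 higher, short of the fold set, and it passed with quantile normalisation (1.18), without colon vehicle library 3 (1.10) and without lung vehicle library 3 (1.03). Smad9 stood at 0.56 with a pseudocount of 5 TPM, 0.61 with quantile normalisation and 0.96 after median ratio scaling. That scaling also took Id1, at -0.62 before, past the threshold at -1.03. Against lung, liver was called higher for Hamp, by 6.78 (8.89% called higher). It was called lower for Smad6, Id1, Id3 and Smad7 (54% called lower). Bmp6 and Id4 are given as levels. Bmp6 differed by -5.05, Smad6 by -4.01, Id1 by -3.83, Id4 by -2.22, Id3 by -2.18 and Smad7 by -2.18. After median ratio scaling the Id3 (-0.83) and Smad7 (-0.94) calls were lost, Id2 passed at 1.66, and Smad9 and Atoh8, at -0.01 and -0.28 before, turned to 1.08 and 0.99. Id4 stood at -0.997 with a pseudocount of 5 TPM. With quantile normalisation it stood at -0.73, and Smad9 and Atoh8 turned to 1.48 and 0.97.

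The order of the Id3 levels over the 6 groups was lung vehicle, lung RECTAS, colon vehicle, colon RECTAS, liver vehicle and liver RECTAS. Lung vehicle and lung RECTAS overlapped, as did colon vehicle and colon RECTAS, while lung RECTAS and colon vehicle, colon RECTAS and liver vehicle, and liver vehicle and liver RECTAS were apart. For Id2 the order was liver vehicle, lung vehicle, lung RECTAS, liver RECTAS, colon RECTAS and colon vehicle, and the RECTAS livers lay between the RECTAS lungs and the RECTAS colons. Among the vehicle groups liver thus had the highest mean of Id2, overlapping lung, and the lowest of Id3. Id1 was highest in colon and lung, and the vehicle livers lay apart from the vehicle lungs.

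Id2 and Id3 varied together between libraries. After subtracting each tissue mean, their Pearson correlation over all 18 libraries was 0.877, and over the 12 colon and lung libraries, which did not choose the members, it was 0.757. Within tissues it was 0.908 in liver, 0.842 in lung and 0.709 in colon, with 6 libraries each. Id1 and Id3 had a correlation of 0.328 over 18 libraries, 0.612 in liver, 0.693 in colon and -0.842 in lung, so in lung the libraries with more Id1 had less Id3. Only the tissue mean was subtracted, so differences between RECTAS and vehicle remain in these correlations. In liver, centred Id3 was 0.29 to 0.61 under vehicle and -0.52 to -0.46 under RECTAS. In lung, the RECTAS differences of Id1 (0.56) and Id3 (-0.20) had opposite signs. Correlations within a treatment group were not computed. These are descriptions over libraries that share a tissue and the same TPM total, and the liver values include the ones that chose Id3.

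**Figure D4:**
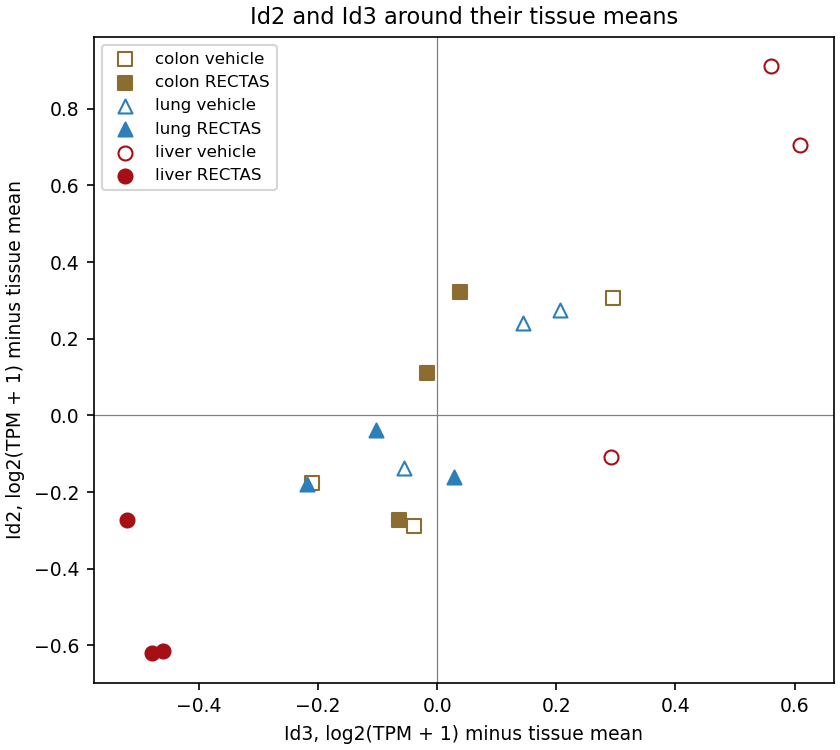
Id2 against Id3 as log2(TPM + 1) minus the tissue mean, with colours for colon, lung and liver and filled points for RECTAS. Each point is 1 of 18 libraries; r is 0.877, the 3 RECTAS livers have the 3 lowest Id3 values, and 2 vehicle livers the highest of both genes.

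Predicted genes, with Gm or Rik names, were left out of the rankings here. Genes whose pattern was most like that of Id3 were found by the same correlation over 18 libraries among 10753 genes tested in all 3 tissues. They were Enox2 (0.879), Id2 (0.877), Trim34a (0.866), Ndufs3 (0.866) and Hes1 (0.855). For Id1 they were Rragc (0.837), Atp5c1 (0.833), Plekhf2 (0.804), Slc25a33 (0.786) and Tmem192 (0.752). The 2 lists share 0 genes. The 18 libraries include the livers whose values chose Id3. Over the 12 colon and lung libraries alone, a ranking added after seeing the data, the 5 genes most like Id3 were Hmox1 (0.911), Trim34a (0.897), Sars2 (0.828), Dpp7 (0.822) and Fech (0.811), of which 1, Trim34a, was among the 5 over all libraries. Enox2, Ndufs3 and Hes1 had 0.596, 0.557 and 0.557 there. For Id1 the 5 were Riox1 (0.902), Jmjd6 (0.892), Pde12 (0.878), Hnrnpf (0.873) and Zfp830 (0.873), and 0 were shared.

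The rest of the pathway was read from lists chosen with earlier results of these data known, and in liver and lung 0 of the listed genes passed by limma in either direction. In liver 0.0167% of all genes tested were called higher and 0% lower, and 1388 genes had an unadjusted p under 0.05, 429 of them higher (753 of 1350 after median ratio scaling). Of all genes tested in liver, 60.0% were lower under RECTAS, which is the share to set beside the list counts. Ligands were higher in 2 and lower in 4 of the 6 measured in liver, with a median of -0.09. Gdf2, the BMP9 gene, which stellate cells make, was at 8.20 ± 1.29 and 9.15 ± 0.999 TPM. Receptors and co-receptors were higher in 2 and lower in 9 of 11. Acvr2b, an activin and BMP receptor gene, read 2.77, 2.17 and 2.67 TPM under vehicle and 1.32, 1.03 and 1.52 TPM under RECTAS. All the RECTAS values lay below the vehicle values (log2 difference -0.63, SE 0.13, adjusted p = 0.215 by limma). Hjv, the hemojuvelin gene, a co-receptor needed for hepcidin expression, stood at 43.8 ± 9.38 and 32.3 ± 4.45 TPM with overlap. SMAD transducers were lower in 4 of 5 and their median was -0.12.

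Of the other BMP targets, the 3 measured in liver were lower under RECTAS. Hes1, a Notch and BMP target that encodes a repressor, read 9.04, 6.19 and 9.56 TPM under vehicle and 2.55, 4.49 and 4.15 TPM under RECTAS, and the groups lay apart (log2 difference -0.97, SE 0.21, adjusted p = 0.232 by limma). Junb, an AP-1 subunit gene, read 38.3, 56.0 and 49.6 TPM and 14.8, 18.9 and 33.2 TPM, also apart (-1.13, SE 0.28, adjusted p = 0.275). Iron handling genes were higher in 6 and lower in 8 of 14, with a median of -0.06. Tfrc, the transferrin receptor gene, read 4.82, 6.68 and 7.89 TPM under vehicle and 12.5, 11.1 and 16.4 TPM under RECTAS. The RECTAS livers were all above the vehicle livers (log2 difference 0.94, SE 0.19), but the adjusted p was 0.208. STAT3 and acute phase genes, which share the hepcidin promoter's other input, were higher in 8 and lower in 10 of 18. Socs3, a feedback inhibitor in that pathway, was at 19.7 ± 13.5 and 5.93 ± 0.762 TPM (-1.35, SE 0.47, adjusted p = 0.378), and Lcn2 (lipocalin 2) at 27.9 ± 5.38 and 49.1 ± 12 TPM (0.78, SE 0.21, adjusted p = 0.290).

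In lung, antagonists and SMAD inhibitors were higher under RECTAS in 17 of 17 measured, with a median of 0.24, where 65.4% of all lung genes tested were higher. After median ratio scaling, a check added after seeing the data, the count was again 17 and the median 0.18. Some marker lists also lay on 1 side, with 0 genes called. Smooth muscle markers were higher in 10 of 10 (median 0.23), with sums of 603 to 735 TPM under vehicle and 599 to 921 TPM under RECTAS. Alveolar type 2 markers were higher in 10 of 10 (median 0.23), with sums of 37094 to 40866 and 41892 to 45954 TPM. Ciliated cell markers were lower in 10 of 10 (median -0.22), with sums of 1009 to 1153 and 894 to 1027 TPM. Smurf2, a ubiquitin ligase gene that acts on SMADs, read 40.3, 42.0 and 42.2 TPM and 48.8, 54.8 and 52.4 TPM. The groups lay apart, with a log2 difference of 0.32 (SE 0.06, adjusted p = 0.264 by limma). Twsg1, which encodes a secreted BMP-binding protein, was at 69.5 ± 1.35 and 84.7 ± 6.59 TPM, and Tob2 at 19.6 ± 2.42 and 26.8 ± 2.67 TPM, both with groups apart. Smad1, the transducer gene, read 16.6, 16.3 and 15.3 TPM and 18.6, 18.9 and 18.7 TPM (0.21, SE 0.06, adjusted p = 0.311). Gata2, an endothelial BMP target, was at 76.3 ± 11.3 and 108 ± 23.6 TPM (0.49, adjusted p = 0.339). Endothelial markers were higher in 13 of 15 in lung, median 0.14, with sums of 3251 to 3556 TPM under vehicle and 3428 to 3943 TPM under RECTAS, ranges that overlapped. The sinusoidal endothelial list was higher in 10 of 10, median 0.15, with sums of 598 to 651 TPM under vehicle and 730 to 771 TPM under RECTAS, which did not overlap. After median ratio scaling, endothelial markers were higher in 11 of 15 (median 0.08) and the sinusoidal list in 9 of 10 (median 0.09). Smooth muscle markers were then higher in 9 of 10 (median 0.16) and alveolar type 2 markers in 10 of 10 (median 0.17). Ciliated cell markers were again lower in 10 of 10 (median -0.28). The sums were not rescaled. The part of these cell types in the values above was not tested. Other BMP targets were higher in 2 and lower in 6 of 8, with Hes1 at 72.9 ± 14.4 and 58.4 ± 10.03 TPM. In colon, the 8 pathway lists had medians from -0.01 to 0.12, and 0 of their genes passed.

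**Figure D5:**
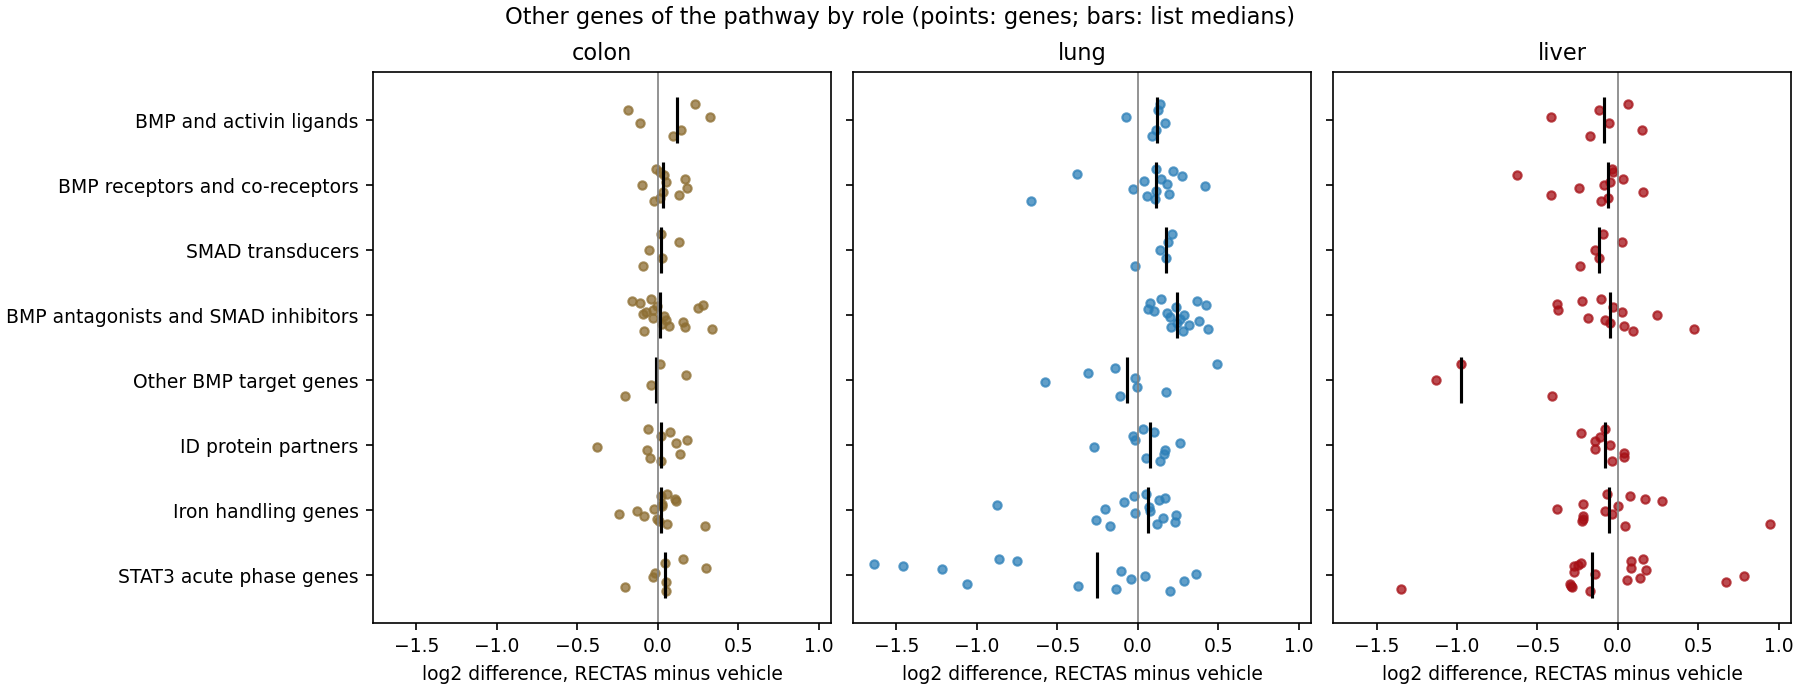
Log2 difference of RECTAS minus vehicle for genes of the pathway lists that passed the filter, by list and tissue. Each point is 1 gene, the grey line marks 0 and black bars are list medians; the lung antagonists and SMAD inhibitors all lie above 0, with a median of 0.24.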

How the data were processed

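RNA from 18 libraries (3 tissues, vehicle or RECTAS, 3 each) was measured as polyadenylated RNA, per the labels' protocols. TPM values per gene, deposited by the authors as 1 table a library, were used unchanged. The submitters' processing notes name HISAT2 2.2.0, RSEM 1.3.0 and GRCm38 but not what each was used for. TPM keeps no read depth, and a rise of abundant genes lowers the rest, so rescaled values were tried. Values were tested as log2(TPM + 1), computed here from the deposited TPM, with limma 3.58.1 (R 4.3.3; two-sided, with an intensity trend), for genes that reached 1 TPM in 3 or more libraries of a fit. Benjamini-Hochberg adjustment at 0.05 ran over all genes, and comparisons of vehicle tissues also needed a log2 difference of 1. Libraries correlated at no more than 0.995, and 0 pairs held identical values.

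The members, gene lists and markers were chosen with earlier results of these data known. All members are named, and of each list up to 3 genes with the smallest p in a comparison. Promoters of 250 bases came from RefSeq. The test was first run on simulated data with known changes. Other settings tried were a pseudocount of 0.1 or 5 TPM, a filter of 5 TPM or none, median ratio scaling, quantile normalisation, rescaling without mitochondrial and the top 20 genes, a replicate block, 1 fit of all 18 libraries and leaving out each library. Python 3.11.15 was used for sequences and figures.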

Additional observations from a re-analysis of the deposited data

How the results depend on the processing

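No member was called in lung or colon under any alternative run (0), with adjusted p of at least 0.133 in lung and 0.995 in colon. Counts of called genes moved more: in liver 2, but 7 with a filter of 5 TPM, 5 after median ratio scaling or quantile normalisation, 134 in a fit of all 18 libraries and 0 to 6 when 1 library was left out. In lung the 1 became 37 in the fit of all libraries and 0 to 4 leaving out 1; in colon 0 became 2 with a pseudocount of 0.1 TPM or in the fit of all libraries, and 0 to 1 leaving out 1. The averaged effect gave 1 after the filter of 5 TPM, median ratio scaling or quantile normalisation, 6 in the fit of all libraries and 0 to 1 leaving out 1; the lung minus colon effect gave 2 in that fit and 0 to 2. With a pseudocount of 5 TPM the count of vehicle calls went from 7931 to 4766 (liver, colon), from 6918 to 4295 (lung, colon) and from 10518 to 6683 (liver, lung), and to 6672 after quantile normalisation for the last. Replicate numbers gave same-number correlations of -0.294 to 0.409, which did not show pairing. With 3 libraries in each group, they cannot exclude it. The replicate block gave 0 calls in liver and left the other counts within 1.5 times. In liver, a pseudocount of 5 TPM took the log2 difference of Id3 from -0.97 to -0.85 and that of Smad9 from -0.61 to -0.29. Signs turned, leaving out 1 library, for Hamp in lung (-1.004 to 0.24), and in colon for Id2 (-0.028 to 0.29), Id3 (-0.14 to 0.11), Id4 (-0.26 to 0.20), Smad6 (-0.19 to 0.077) and Atoh8 (-0.047 to 0.44). Between vehicle tissues they turned for Smad7, lung minus colon (-0.056, median ratio), Id4, lung minus colon (-0.17, quantile), Smad9, liver minus lung (1.08 median ratio, 1.48 quantile, 0.027 rescaled, -0.10 to 0.076 leaving out 1), and Atoh8 (0.99, 0.97, -0.64 to 0.0059). The cause was not tested. Filters, fewer libraries and shared spread change the number of genes or degrees of freedom by construction. The unknown depth limits what low genes such as Id4, Smad9 and Bmp6 in liver can show.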
